A study of Mus musculus with 8 samples.

Results

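The genes that build and process the lipids of the epidermal barrier were compared between skin with and without the glucocorticoid receptor (GR). A list of 44 genes was used, from the fatty acid elongases to the enzymes that release ceramides and free fatty acids, and 43 of them had a probe set annotated to that gene alone, out of 18194 genes measured. No such probe set was found for Sts. For a gene with several such probe sets, the brightest on average over the 8 arrays was used. The tissue was dorsal skin of B6D2/F1 mouse embryos at embryonic day 18.5, hybridised to 8 single-colour Affymetrix arrays. The wild-type group (GR+/+) held 4 arrays, numbered 4, 6, 28 and 29 in their labels, and the group without the receptor (GR-/-, here GR-null) held 4, numbered 5, 17, 25 and 26. The labels call the embryos littermates, name no litter, and give neither the allele nor whether each array was a separate embryo, so the p-values measure the spread between these samples, which may be technical. Values array by array are given in the label order 4, 6, 28, 29 for wild-type and 5, 17, 25, 26 for GR-null.

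The outermost layers of the skin are made watertight by stacked lipid sheets of ceramides, cholesterol and free fatty acids. Keratinocytes of the granular layer elongate fatty acids to unusual length, attach them to a sphingoid base to form ceramides, add a terminal hydroxyl group and a linoleate to make acylceramides, cap these with glucose and load them into lamellar bodies. After secretion, lipases and glucocerebrosidase convert the cargo to the mature barrier lipids. Inherited loss of many of these enzymes causes ichthyosis in humans or fatal water loss in newborn mice.

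Nr3c1, which encodes GR, gave lower values in GR-null arrays, with no overlap between the groups, at 3 of its 6 probe sets. At its brightest probe set it fell by 0.84 ± 0.11 log2 (SE, limma, adjusted p = 0.0108), to between 9.21 and 9.62 log2 in GR-null arrays. The other probe sets without overlap had larger falls, with differences of -1.86 and -2.70 log2. The probe sets of Nr3c1 that did not fall, all dimmer, had differences of 0.27, 0.04 and 0.35. Array medians lay between 6.46 and 6.52 log2. Xist marked wild-type 6 and GR-null 17 as the single arrays of their groups with Xist signal and without Y-linked signal. The mean of 10 skeletal muscle markers lay between 12.37 and 12.62 log2 in wild-type arrays and was 11.65, 11.95 and 11.92 in GR-null 5, 25 and 26 but 12.50 in GR-null 17. The mean of 8 keratinocyte markers lay between 13.13 and 13.59 log2 in wild-type and between 12.89 and 13.33 in GR-null arrays, with signal in all 8 arrays. Their part in the results below was examined only through the covariate fits described later. The muscle mean largely followed genotype outside GR-null 17, which limits the fits that use it. In whole skin fewer cells of a type and less RNA per cell cannot be told apart. Loricrin (Lor), 1 of those 8 markers, fell by 0.48 log2 (adjusted p = 0.0379), and Myh3, 1 of the 10 muscle markers, fell by 0.55 (adjusted p = 0.0234).

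In GR-null skin the elongase Elovl7 and the fatty acid transporter and acyl-CoA synthetase Slc27a4 fell, and the other 41 measured barrier lipid genes were not past the threshold of an adjusted p of 0.05. Differences are GR-null minus wild-type on the log2 scale, from limma with Benjamini-Hochberg adjustment over all 18194 genes. Of the 43 genes, 2 fell and 0 rose. Over all genes 1.56% fell, 1.40% rose and 2.96% differed in either direction, against 4.65% of the 43. At an unadjusted p below 0.05, 6 of the 43 were lower and 2 higher, beside 11.1% and 10.5% of all genes (21.6% in either direction). The groups did not overlap for 3 of the 43, all lower in GR-null arrays, beside 6.30% of all genes lower, 6.69% higher and 13.0% in either direction. The difference was positive for 20 of the 43 and negative for 23, with a median of -0.026 log2 beside -0.0045 over all genes. The difference was at least 1.5-fold in either direction for 5 of the 43 (11.6%, beside 4.40% of all genes), and of at least 2-fold for Elovl7 alone. Of those 5, 3 were not past the threshold. The median standard error was 0.21 log2 over the 43 genes and 0.10 over all genes, so large differences are also more likely from spread alone. At the probe sets used, the 95% interval of the difference excluded a 2-fold change in either direction for 34 of the 43 genes. Among the 41 not past the threshold, the interval did so for 33. Over all genes, called ones included, it did so for 17253 of 18194. Of the 25 genes with several probe sets, 14 had differences of both signs among them, so the direction of those genes depends on the probe set.

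**Figure D1:**
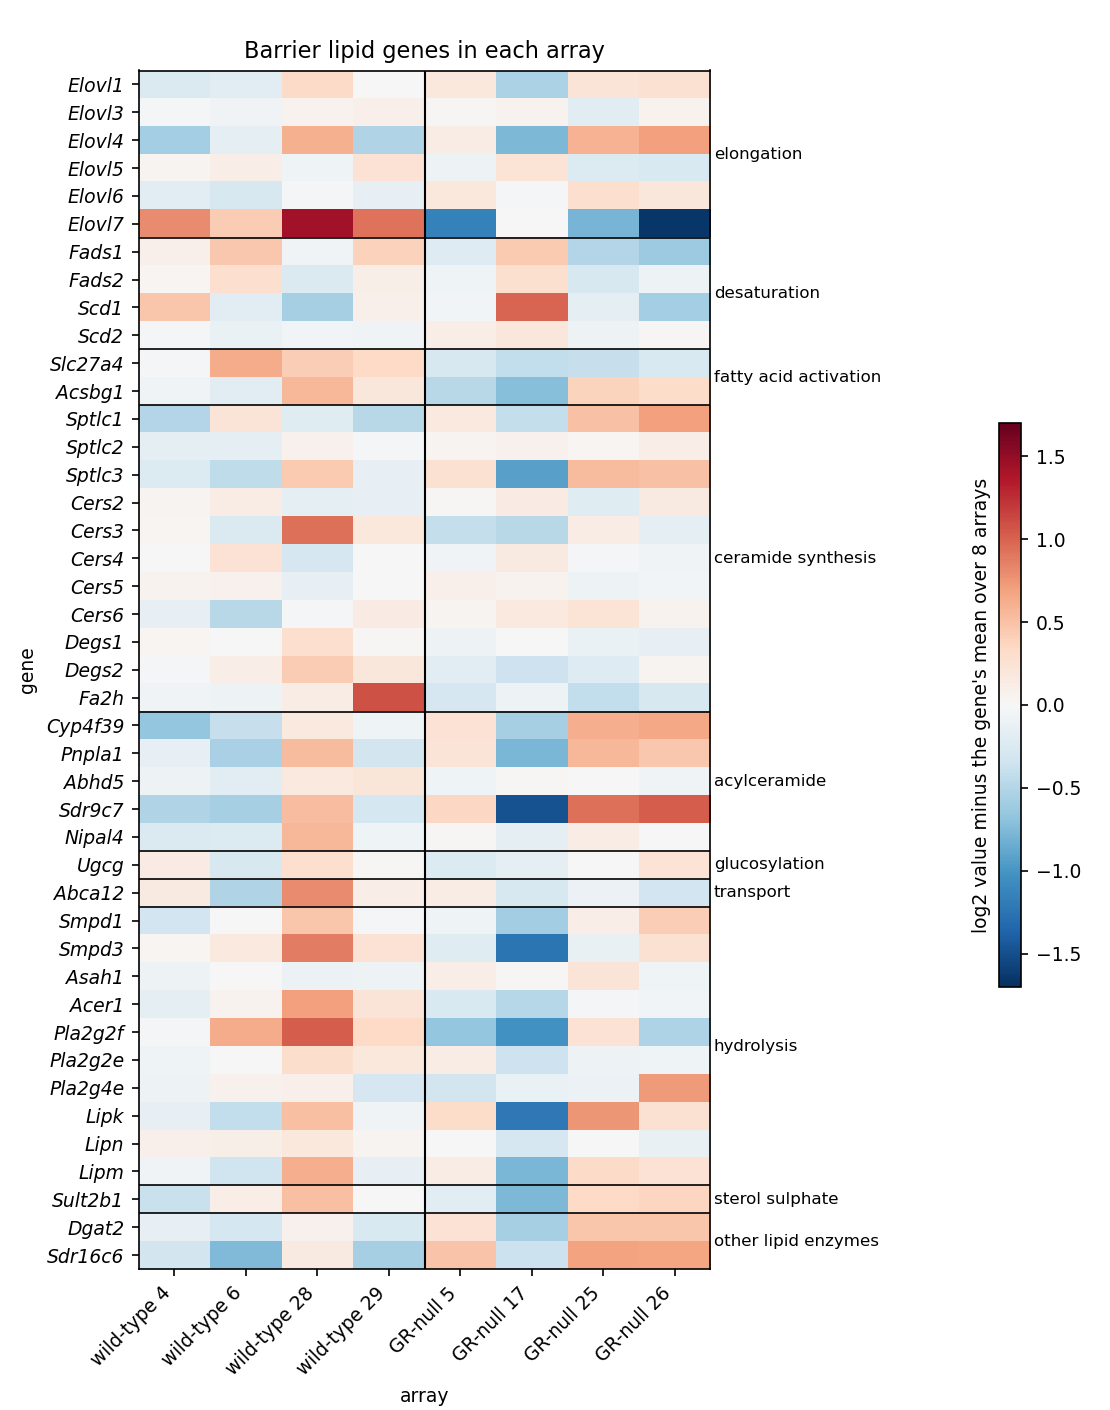
Log2 value of each of the 43 genes (rows, grouped by step) in each array (columns), relative to that gene's mean over the 8 arrays; red is above the mean and blue below. Elovl7 is red in all 4 wild-type arrays and blue or near 0 in the GR-null arrays, while many genes of hydrolysis and acylceramide formation are red in wild-type 28 and blue in GR-null 17.

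The 250 bases before the RefSeq start of the genes that fell, and of Acer1, the alkaline ceramidase of the upper epidermis, are shown because GR acts by binding DNA and because Acer1 held the most matches to the motif searched. The windows are from RefSeq (build GRCm38.p6), 5′ to 3′ on the gene's strand, in lower case, with the hexamer AGAACA, the core of a GR binding element, in capitals where it occurs (TGTTCT where it lies on the other strand).
Elovl7, chr13:108214154-108214403, plus strand: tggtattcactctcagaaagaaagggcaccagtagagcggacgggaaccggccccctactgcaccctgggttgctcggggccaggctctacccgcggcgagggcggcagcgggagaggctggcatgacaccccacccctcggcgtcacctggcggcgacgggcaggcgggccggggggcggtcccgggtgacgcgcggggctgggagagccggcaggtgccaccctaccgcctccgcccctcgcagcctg
Slc27a4, chr2:29802384-29802633, plus strand: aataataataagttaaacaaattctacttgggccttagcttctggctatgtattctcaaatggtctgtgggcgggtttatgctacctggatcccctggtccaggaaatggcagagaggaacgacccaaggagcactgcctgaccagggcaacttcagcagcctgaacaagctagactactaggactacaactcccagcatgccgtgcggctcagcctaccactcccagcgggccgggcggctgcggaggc
Acer1, chr17:56982127-56982376, minus strand: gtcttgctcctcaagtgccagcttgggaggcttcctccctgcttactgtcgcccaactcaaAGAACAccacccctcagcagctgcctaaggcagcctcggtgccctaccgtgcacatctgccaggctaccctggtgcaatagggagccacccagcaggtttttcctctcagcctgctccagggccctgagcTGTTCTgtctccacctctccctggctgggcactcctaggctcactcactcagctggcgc
Of the 43 genes, 34 had such a window, some with several starts, 37 windows in all. The palindromic GR element GNACANNNTGTNC, searched on both strands, was in 0 of the 37 windows and in 0.387% of 32851 windows of all genes. The hexamer AGAACA, also searched on both strands and able to overlap the start of the palindrome, was in 3 of the 37 (8.11%) and in 16.1% of all windows. The matches were 2 in Acer1 and 1 each in Elovl4 and Sdr16c6. Elovl7 and Slc27a4 held neither motif in this window. A match is a description of the letters, not a binding site.

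Elongation starts the pathway. Elovl7, which lengthens long-chain acyl-CoAs, had log2 values of 10.61, 10.24, 11.23 and 10.73 (wild-type arrays) and 8.66, 9.81, 9.01 and 8.15 (GR-null arrays). Every GR-null array lay below every wild-type array, with GR-null 17 the closest to them. Elovl7 fell by 1.80 ± 0.33 log2 (SE over 4 arrays in each group), which is 3.48-fold (limma adjusted p = 0.0308). The probe set read ends in _x_at and can take up related transcripts. The 6 probe sets of Elovl7 gave differences from -1.80 to -0.95 log2, and 3 of the 6 passed the threshold over all probe sets. At the second brightest, whose name has no such ending, the log2 values were 9.99, 9.82, 10.84 and 10.46 (wild-type arrays) and 8.84, 9.31, 9.28 and 8.51 (GR-null arrays), again without overlap. Read there, Elovl7 fell by 1.29 ± 0.25 log2 (limma adjusted p = 0.0334).

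Elovl7 kept its direction without any 1 array but not always its call. Leaving out each array in turn gave differences from -2.10 to -1.54 log2. The limma adjusted p was 0.0618 without wild-type 4, 0.0829 without wild-type 28 and 0.0903 without wild-type 29. It was 0.0803 without GR-null 5, 0.0969 without GR-null 25 and 0.0659 without GR-null 26, so that the call was lost in each of these fits. It was 0.0418 without wild-type 6 and 0.00539 without GR-null 17. With the muscle marker mean as a covariate the difference was -1.23 ± 0.45 log2 (adjusted p = 0.357).

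Elovl6, which elongates palmitate to stearate, had the smallest p of the other elongases. It had log2 values of 9.92, 9.82, 10.08 and 9.96 (wild-type arrays) and 10.28, 10.07, 10.38 and 10.29 (GR-null arrays). GR-null 17 lay just below the highest wild-type array, wild-type 28, and the other GR-null arrays lay above all wild-type arrays. The difference was 0.31 ± 0.09 log2 (limma adjusted p = 0.0977), and the other probe sets of Elovl6 gave -0.02 and -0.07. Elovl1, the elongase of very long saturated chains, had a difference of 0.06 log2 (95% interval -0.38 to 0.50). Its 4 probe sets ranged from -0.28 to 0.91. Elovl4, whose ultra-long products enter acylceramides, had 0.32 (-0.48 to 1.12), with -0.18 at its other probe set. Elovl5, which acts on polyunsaturated chains, had -0.17 (-0.45 to 0.11). Elovl3, an elongase of hair follicles and sebaceous glands, read between 4.53 and 4.80 log2 in all arrays, below the median probe set, and had -0.03 (-0.21 to 0.16). Of the 6 elongases, 1 fell and 0 rose, beside 1.56% and 1.40% of all genes.

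Activation couples fatty acids to coenzyme A. Slc27a4, whose loss gives a wrinkle-free, leaky skin in mice and ichthyosis prematurity syndrome in humans, had log2 values of 8.78, 9.43, 9.23 and 9.15 (wild-type arrays) and 8.53, 8.39, 8.41 and 8.55 (GR-null arrays). The groups did not overlap, and the GR-null arrays lay close together. Slc27a4 fell by 0.68 ± 0.13 log2 (SE over 4 arrays in each group), which is 1.60-fold (limma adjusted p = 0.0344). It had 1 probe set. Leaving out each array gave -0.80 to -0.58 log2, and the call was lost in 6 of the 8 fits. The adjusted p was 0.0551 without wild-type 6, 0.0957 without wild-type 28, 0.0945 without wild-type 29, 0.0778 without GR-null 5, 0.114 without GR-null 25 and 0.0770 without GR-null 26. It was 0.0168 without wild-type 4 and 0.0319 without GR-null 17. With the muscle covariate the difference was -0.70 ± 0.20 (adjusted p = 0.259). Acsbg1, another acyl-CoA synthetase, had -0.25 log2 (95% interval -0.86 to 0.35), with GR-null 17 lowest at 8.26 and wild-type 28 highest at 9.55.

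**Figure D2:**
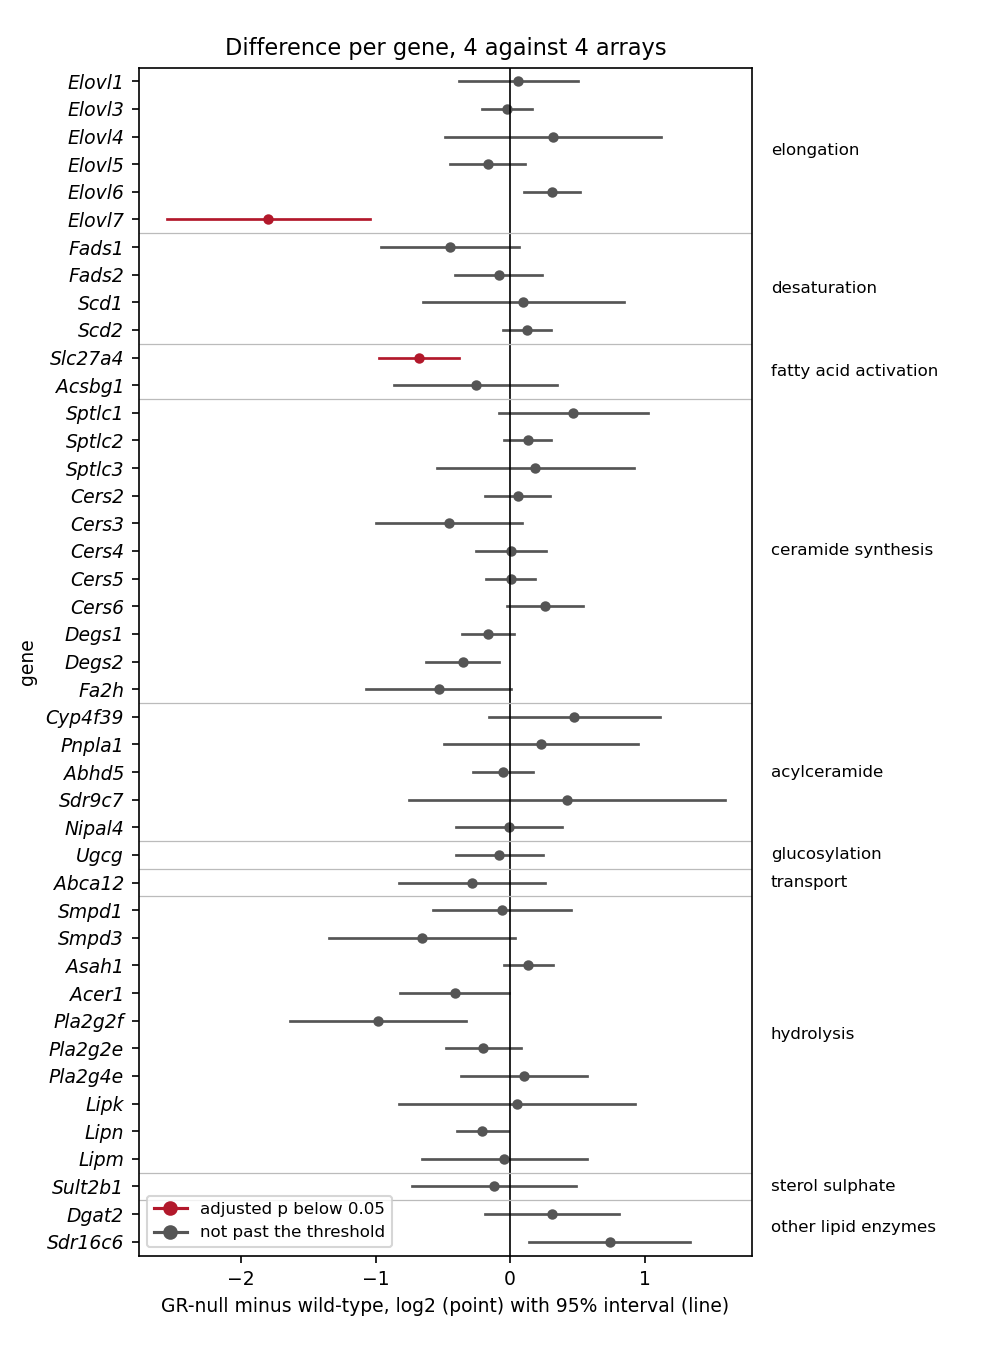
Difference between GR-null and wild-type arrays (log2, point) with its 95% interval from limma (line) for the 43 genes, grouped by step. The intervals of Elovl7 and Slc27a4, in red, lie wholly below 0, and most other intervals include 0.

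Desaturases gave no call, 0 of 4 in either direction. Fads1, which makes polyunsaturated fatty acids such as arachidonate, had log2 values of 9.12, 9.50, 8.97 and 9.43 (wild-type arrays) and 8.82, 9.48, 8.53 and 8.41 (GR-null arrays). GR-null 5, 25 and 26 lay below all wild-type arrays and GR-null 17 near the top of them. The difference was -0.45 log2 (95% interval -0.96 to 0.07). Fads2, the enzyme of the first desaturation of linoleate, had -0.09 (-0.41 to 0.24) at its brightest probe set and 0.70 at a dimmer one. Scd2, the main stearoyl-CoA desaturase of developing skin, had 0.13 (-0.05 to 0.31) at its brightest probe set and 0.75 and 0.20 at the others, which were not past the threshold either.

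Scd1, its relative in fat and sebaceous cells, had 0.10 log2 (95% interval -0.65 to 0.84). It had log2 values of 8.84, 8.19, 7.80 and 8.45 (wild-type arrays) and 8.32, 9.36, 8.20 and 7.79 (GR-null arrays). The mean of 5 measured adipocyte markers (Adipoq, Cidec, Lpl, Retn and Fabp4), in the same order of arrays, was 10.32, 8.19, 7.89 and 9.81, then 9.10, 10.29, 8.54 and 7.995. The arrays with the most adipocyte signal, wild-type 4, GR-null 17 and wild-type 29, were also the 3 highest in Scd1. With the adipocyte mean as a covariate the difference in Scd1 was 0.13 ± 0.15 log2, against a standard error of 0.33 without it. The part of fat content in these values was not tested further.

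**Figure D3:**
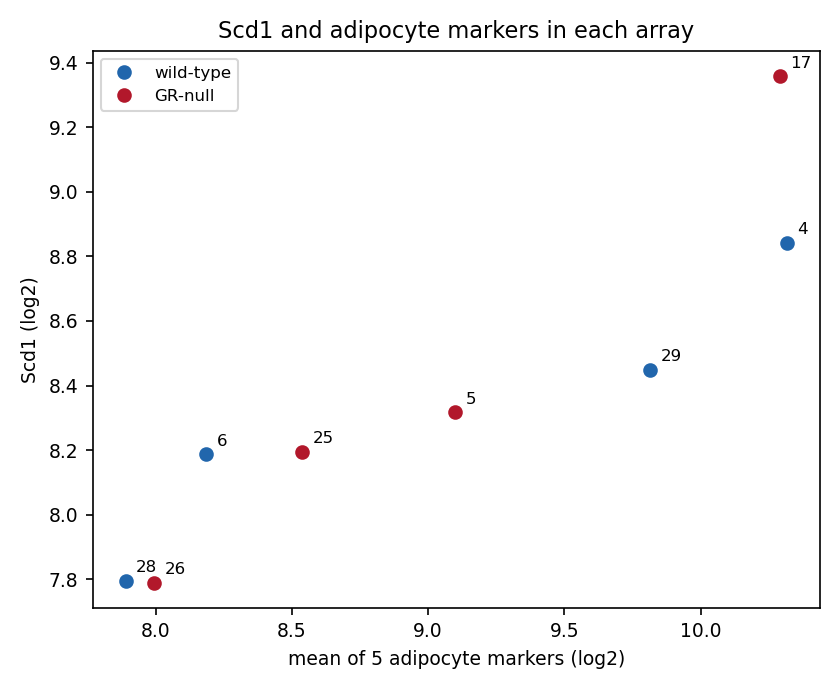
Log2 value of Scd1 against the mean of 5 adipocyte markers in each array; numbers are the arrays' label numbers. Wild-type 28 and GR-null 26 are low on both axes and GR-null 17 and wild-type 4 high on both.

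Ceramide synthesis joins the fatty acid to the sphingoid base, and none of its 11 genes was past the threshold. At an unadjusted p below 0.05, 1 was lower and 0 higher, beside 11.1% and 10.5% of all genes. Among the subunits of serine palmitoyltransferase, the first enzyme of sphingolipid synthesis, Sptlc1 had 0.47 log2 (95% interval -0.08 to 1.02), Sptlc2 0.13 (-0.04 to 0.31) and Sptlc3 0.19 (-0.54 to 0.92). The 4 probe sets of Sptlc1 ranged from -0.42 to 0.47, and the other probe sets of Sptlc2 gave -0.03 and -0.23. Cers3, the ceramide synthase that takes ultra-long acyl-CoAs, had log2 values of 9.51, 9.23, 10.40 and 9.65 (wild-type arrays) and 9.07, 9.002, 9.60 and 9.33 (GR-null arrays). The groups overlapped, with wild-type 28 well above the rest. The difference was -0.45 (-0.99 to 0.09). The other synthases had differences closer to 0. Cers2, for very long chains, had 0.06 (-0.19 to 0.30), Cers4 had 0.0069 (-0.25 to 0.26), and Cers5 and Cers6, for palmitoyl chains, had 0.0036 (-0.18 to 0.19) and 0.26 (-0.03 to 0.54).

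Of the enzymes that desaturate or hydroxylate the sphingoid base and the acyl chain, none was past the threshold. Degs2, which adds the hydroxyl group of phytoceramides, had log2 values of 4.86, 5.01, 5.33 and 5.10 (wild-type arrays) and 4.70, 4.55, 4.68 and 4.95 (GR-null arrays). GR-null 26 was the array that overlapped wild-type. The difference was -0.35 ± 0.12 (limma adjusted p = 0.138), at a level below the median probe set, where RMA compresses changes. Degs1, the dihydroceramide desaturase, had -0.17 (95% interval -0.36 to 0.03) at its brightest probe set and 0.45 at the other, so its probe sets differed in sign. Fa2h, the fatty acid alpha-hydroxylase, had -0.53 (-1.07 to 0.0096), with 7.10 log2 in wild-type 29 against 5.93 to 6.15 in the other wild-type arrays.

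Acylceramide formation gave 0 calls among 5 genes, and 0 at an unadjusted limma p below 0.05. Cyp4f39, which adds the terminal hydroxyl group to ultra-long fatty acids, had log2 values of 8.45, 8.72, 9.28 and 9.04 (wild-type arrays) and 9.36, 8.54, 9.73 and 9.77 (GR-null arrays). GR-null 17 lay within the wild-type range and the other GR-null arrays above it. The difference was 0.48 ± 0.28 (limma adjusted p = 0.373). Sdr9c7, a dehydrogenase that oxidises the linoleate of acylceramides before they are bound to protein, had log2 values of 8.07, 8.01, 9.10 and 8.28 (wild-type arrays) and 8.93, 7.10, 9.51 and 9.61 (GR-null arrays). GR-null 17 was the lowest of all 8 arrays and GR-null 26 the highest. The difference was 0.42 (95% interval -0.75 to 1.59; 0.65 at the other probe set), the widest interval among the 43 genes. Pnpla1, the transacylase that attaches linoleate, had 0.23 (-0.49 to 0.95), and its activator Abhd5 had -0.05 (-0.28 to 0.17), with 0.36 and 0.06 at its other probe sets. Nipal4, the ichthyosis protein ichthyin, had -0.0066 (-0.40 to 0.39) at its brightest probe set and 0.67 at a dimmer one.

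Ugcg, the glucosyltransferase that caps ceramides before transport, had -0.08 log2 (95% interval -0.40 to 0.24) at its brightest probe set and -0.05 to 0.35 at the others. Abca12, the lamellar body transporter mutated in harlequin ichthyosis, had log2 values of 7.52, 6.86, 8.17 and 7.48 (wild-type arrays) and 7.49, 7.09, 7.26 and 7.04 (GR-null arrays). All GR-null values lay inside the wild-type range. The difference was -0.29 (-0.83 to 0.26). At the probe sets used, the intervals of Ugcg and Abca12 exclude a 2-fold change either way.

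The hydrolysis step groups lipases, phospholipases, sphingomyelinases and the ceramidases, which break ceramides down. Of its 10 genes, 0 were past the threshold. At an unadjusted p below 0.05, 3 were lower and 0 higher, beside 11.1% and 10.5% of all genes. Pla2g2f, the secreted phospholipase of the upper epidermis, had log2 values of 9.59, 10.25, 10.65 and 9.97 (wild-type arrays) and 8.96, 8.60, 9.87 and 9.09 (GR-null arrays). GR-null 25 overlapped the wild-type arrays and the other GR-null arrays lay below them. The difference was -0.98 ± 0.29 (1.98-fold, limma adjusted p = 0.0965), and the dimmer probe set of the gene gave 0.10. Pla2g2e, a neighbour of Pla2g2f with 3 coding genes between them in RefSeq order, had -0.20 (95% interval -0.48 to 0.08) at a level below the median probe set.

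Acer1 had log2 values of 10.23, 10.44, 11.07 and 10.59 (wild-type arrays) and 10.12, 9.89, 10.35 and 10.33 (GR-null arrays). The groups overlapped through GR-null 25 and 26. The difference was -0.41 ± 0.18 (limma adjusted p = 0.226), and the other probe set of Acer1 gave 0.37. Of the sphingomyelinases, which make ceramide from sphingomyelin, the neutral enzyme Smpd3 had -0.66 (95% interval -1.35 to 0.04), with GR-null 17 lowest at 6.74 and wild-type 28 highest at 8.84. Its other probe sets gave -0.21 and -0.09. The acid enzyme Smpd1 had -0.06 (-0.57 to 0.45), with -0.37 at its other probe set. Asah1, the acid ceramidase, had 0.14 (-0.05 to 0.32).

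The acid lipases Lipk, Lipn and Lipm lie side by side on chromosome 19 in RefSeq order, with Lipn between the others. Lipn, at a probe set below the median level, had log2 values of 4.17, 4.19, 4.27 and 4.13 (wild-type arrays) and 4.09, 3.80, 4.08 and 3.96 (GR-null arrays). The groups did not overlap, with GR-null 5 closest to the wild-type arrays. The difference was -0.21 ± 0.09 (limma adjusted p = 0.203). Lipk had 0.05 (95% interval -0.83 to 0.93), from 7.60 in GR-null 17 to 9.57 in GR-null 25, and Lipm had -0.04 (-0.66 to 0.57). Pla2g4e, a cytosolic phospholipase, had 0.10 (-0.37 to 0.57). Among the other neighbours in the list, Fads1 and Fads2 are adjacent on chromosome 19 and Scd1 and Scd2 lie there with 1 coding gene between them.

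Of the remaining genes, Sdr16c6, a short-chain dehydrogenase of the retinol dehydrogenase family, had the largest positive difference among the 43. It had log2 values of 9.35, 8.91, 9.82 and 9.10 (wild-type arrays) and 10.15, 9.30, 10.35 and 10.34 (GR-null arrays). GR-null 17 lay within the wild-type arrays and the other GR-null arrays above them. The difference was 0.74 ± 0.26 (1.67-fold, limma adjusted p = 0.151). Dgat2, which makes triglycerides, had log2 values of 10.19, 10.04, 10.41 and 10.08 (wild-type arrays) and 10.58, 9.77, 10.81 and 10.81 (GR-null arrays), a difference of 0.31 (95% interval -0.18 to 0.81), with 0.60 at its other probe set. GR-null 17 was the lowest of the 8 arrays and the other GR-null arrays were the highest. Sult2b1, which makes cholesterol sulphate, had -0.12 (-0.73 to 0.49).

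**Figure D4:**
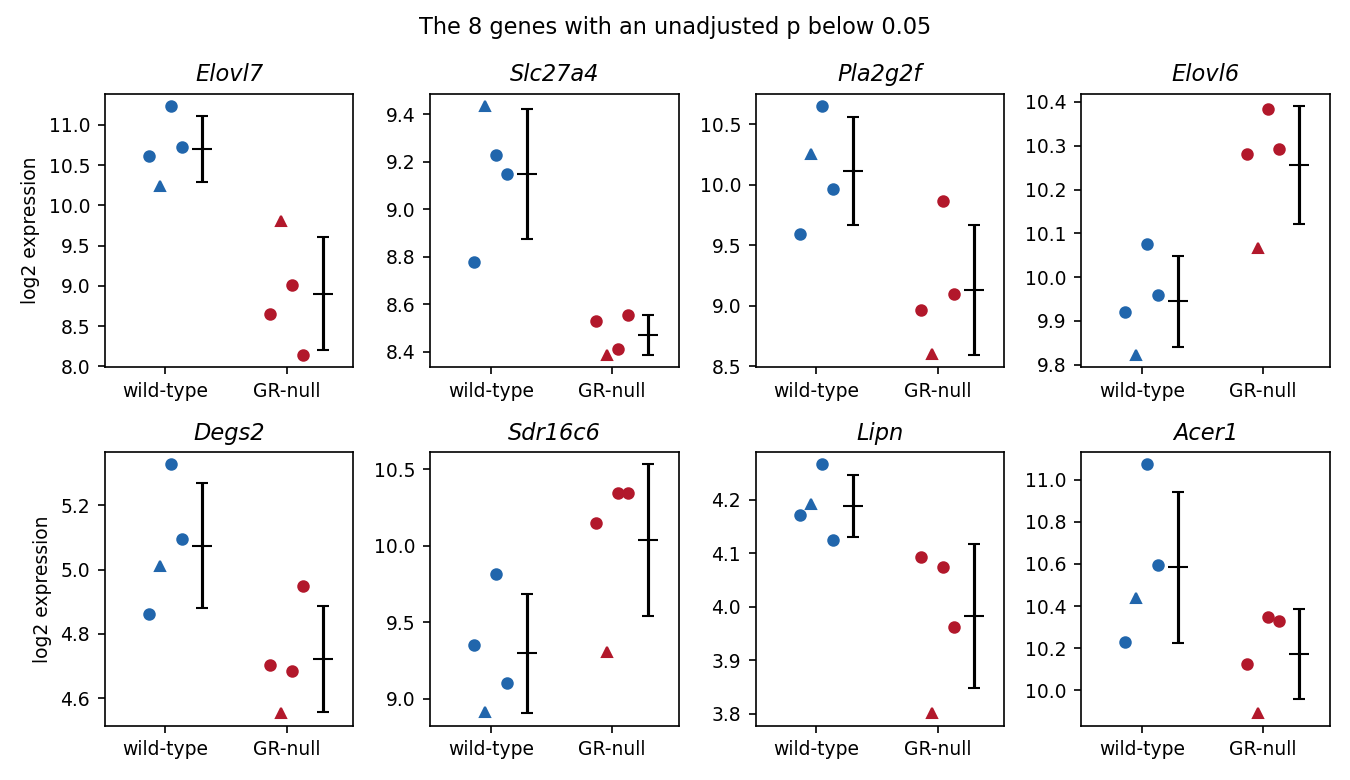
Log2 values of the 8 genes with an unadjusted p below 0.05, by genotype. Points are arrays, triangles mark wild-type 6 and GR-null 17, and bars give the mean and SD of 4 arrays. Elovl7, Slc27a4 and Lipn show no overlap between the groups, and in Elovl6 and Sdr16c6 the GR-null triangle lies among the wild-type arrays.

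GR-null 17 and wild-type 28 often lay at the edge of their group over these genes. GR-null 17 was the lowest GR-null array for 24 of the 43 (55.8%, against 32.7% over all genes), and for 19 of the 43 (44.2%) it was also below every wild-type array, against 14.9% over all genes. Those 19 were 79.2% of the 24, where the share over all genes was 45.6%. The 24 included 8 of the 10 hydrolysis genes and 4 of the 5 acylceramide genes but 0 of the 4 desaturases. Wild-type 28 was the highest wild-type array for 28 of the 43 (65.1%, against 23.7%). The keratinocyte marker mean was lowest in GR-null 17, at 12.89 log2, and highest in wild-type 28, at 13.59. Of its markers, Krt1, Krt10, Dsp, Lor and Ivl were lowest of all arrays in GR-null 17, but Krt5, Krt14 and Dsg1a were not. Krt5 and Krt14 read 13.06 and 12.78 there, against 12.81 and 12.45 in GR-null 5. GR-null 5, 25 and 26 lay above every wild-type array for 4 of the 43 (Elovl6, Cyp4f39, Dgat2 and Sdr16c6), beside 11.4% of all genes, and below for 7 (Elovl5, Elovl7, Fads1, Slc27a4, Degs1, Fa2h and Lipn), beside 13.2%.

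Without GR-null 17, 6 of the 43 differed (against 9.01% of all genes), 3 of them higher and 3 lower, beside 3.80% and 5.21% of all genes. Sdr16c6 rose by 0.98 ± 0.20 log2 (limma adjusted p = 0.0225), Dgat2 rose by 0.55 ± 0.11 (adjusted p = 0.0248) and Elovl6 rose by 0.37 ± 0.08 (adjusted p = 0.0330). Elovl7 fell by 2.10 ± 0.26 (adjusted p = 0.00539), Fads1 fell by 0.67 ± 0.15 (adjusted p = 0.0348) and Slc27a4 fell by 0.65 ± 0.15 (adjusted p = 0.0319). Cyp4f39 at 0.75 (adjusted p = 0.0542), Sdr9c7 at 0.98 (0.0647) and Sptlc1 at 0.68 (0.0667) were just outside. Without both GR-null 17 and wild-type 6, the arrays with Xist signal, 5 genes differed: Elovl7 and Slc27a4 lower, and Dgat2, Sdr16c6 and Sptlc1 higher, beside 5.30% of all genes lower, 4.13% higher and 9.43% in either direction. By contrast 1 of the 43 was called without wild-type 4 (1.62% of all genes) or without wild-type 6 (1.76%), and 0 by limma in the other 5 fits. Over all genes those fits called 0.780% without wild-type 28, 0.572% without wild-type 29, 1.02% without GR-null 5, 0.434% without GR-null 25 and 0.846% without GR-null 26. At an unadjusted p below 0.05 they gave 6 of the 43 without wild-type 28 (18.1% of all genes), 8 without wild-type 29 (17.5%), and 7 each without GR-null 5 (18.4%), GR-null 25 (15.7%) and GR-null 26 (17.2%). These counts are 14% to 18.6% of the 43, near the shares of all genes.

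**Figure D5:**
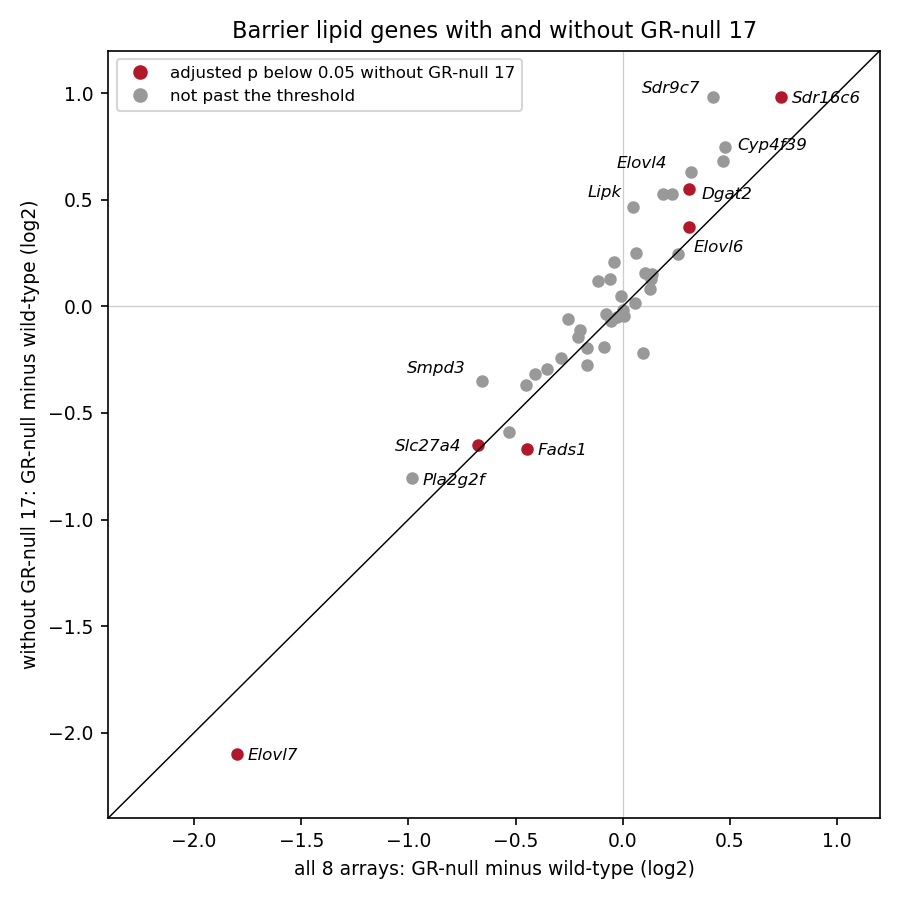
Difference between GR-null and wild-type (log2) for the 43 genes with all 8 arrays (horizontal axis) and without GR-null 17 (vertical axis); the line marks equal values and red points were past an adjusted p of 0.05 without GR-null 17. Sdr9c7, Cyp4f39, Elovl4, Lipk and Dgat2 lie above the line, while Elovl7 and Fads1 lie below it.

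Fits with a marker mean as a covariate gave different sets of calls. The keratinocyte marker mean, a covariate chosen after seeing the data, includes Lor, itself called lower. It also includes Ivl, lower without overlap (-0.99 log2, limma adjusted p = 0.0742). Adjusting for it can therefore shrink or enlarge a difference by genotype, so no conclusion is drawn from the calls gained in this fit. With it, the adjusted difference of Elovl4 was 0.81 ± 0.16 log2 (limma adjusted p = 0.0293), against 0.32 with no covariate. The adjusted differences of Cyp4f39, Sdr16c6 and Elovl6 were 0.86 ± 0.14 (adjusted p = 0.0190), 1.06 ± 0.18 (adjusted p = 0.0216) and 0.40 ± 0.08 (adjusted p = 0.0318). Elovl7 at -1.86 (adjusted p = 0.0339) and Slc27a4 at -0.62 (0.0481) stayed past the threshold, and 5.87% of all genes differed in that fit (3.07% higher, 2.80% lower). With the muscle marker mean as a covariate 0 of the 43 differed, beside 0.330% of all genes, with 10 of the 43 (23.3%) at an unadjusted limma p below 0.05, beside 11.4% of all genes in the same fit. In that fit the differences of Elovl4, Cyp4f39, Sdr9c7 and Dgat2 were -0.40, -0.12, -0.92 and -0.26, all of opposite sign to those with no covariate. The muscle mean was lower in GR-null 5, 25 and 26 than in every wild-type array. The muscle fit therefore tells genotype from muscle signal largely through GR-null 17, so no conclusion is drawn from these sign changes or lost calls. With the adipocyte marker mean Pla2g2f also fell, by 1.01 ± 0.20 (adjusted p = 0.0316), so that 3 of the 43 differed, all lower, beside 4.97% of all genes (2.41% higher, 2.56% lower). The part of tissue content in the differences by genotype was not tested beyond these fits.

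Further genes of the same pathways were taken from 4 lists, with 95 of 106 measured. Of the 95, 1 rose and 1 fell, beside 1.40% and 1.56% of all genes. Among 30 other sphingolipid genes, the galactosylceramidase Galc fell by 0.37 ± 0.08 log2 (limma adjusted p = 0.0499). It had log2 values of 8.24, 8.10, 8.25 and 8.35 (wild-type arrays) and 7.91, 7.95, 7.86 and 7.75 (GR-null arrays). The groups did not overlap. The call of Galc was lost on leaving out any 1 array other than GR-null 17, whereas Alox12e was called in each of those fits. Among 21 lipoxygenase and lamellar lipid genes, the lipoxygenase Alox12e rose by 0.98 ± 0.12 (adjusted p = 0.00756), from 7.15 to 7.42 in wild-type and 8.01 to 8.46 in GR-null arrays. Alox12b and Aloxe3, the lipoxygenases known to act on acylceramides, had -0.46 and -0.55 with adjusted p of 0.516 and 0.243.

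Among 30 other fatty acid genes 0 were called. At an unadjusted limma p below 0.05, 4 were higher and 6 lower, beside 10.5% and 11.1% of all genes. The smallest p belonged to Tecr, the enoyl reductase that completes each round of elongation, at 0.82 ± 0.22 log2 (adjusted p = 0.0775), and to Fabp5, the epidermal fatty acid binding protein, at -0.30 ± 0.08 (adjusted p = 0.0785). Fabp5 lay between 14.33 and 14.61 in wild-type and 14.11 and 14.18 in GR-null arrays, without overlap. Among 14 lipid transcription factors 0 were called, and 0 were at an unadjusted p below 0.05. The smallest p were those of the coactivator Ppargc1b, at -0.55 (adjusted p = 0.260), and of the carbohydrate-sensing factor Mlxipl, at -0.41 (adjusted p = 0.317).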

How the data were processed

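Transcripts were measured in dorsal skin of mouse embryos on 8 single-colour Affymetrix arrays, 4 wild-type and 4 GR-null by their titles. The deposited values are log2 expression per probe set, made by the authors with RMA per the submitters' processing notes, with no version recorded there. Differences near background are understated by RMA, and equal distributions across arrays would hide a shift of most genes. Of 45101 probe sets, 64 controls were left out. Probe sets annotated to 1 gene symbol (34945) gave 18194 genes, of which 18032 were matched in RefSeq (GRCm38.p6) and the others kept the annotation's symbol, and each was represented by its brightest probe set on average.

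Genotype was fitted as the only term with limma 3.58.1 in R 4.3.3 (lmFit and eBayes over all probe sets, two-sided), and p-values were adjusted by Benjamini-Hochberg over 18194 genes with a threshold of 0.05. The fit was tested on simulated data. The number of arrays limits the precision. Members of the list, the further pathway lists and the markers were chosen with earlier results of these data known. Genes past the threshold, at an unadjusted p below 0.05 or changed 2-fold were to be given array by array, with the other probe sets of those genes; array values of further genes, and Alox12b and Aloxe3, were added after their values were seen. In each further list the genes past the threshold, otherwise the 2 with the smallest p, were named. Alternatives were a further quantile step, a filter on level, a trended robust prior, array weights, leaving out arrays, Y-linked (2 genes measured) and muscle covariates, other probe set choices and stricter thresholds. Covariates for adipocyte and keratinocyte markers and the fit without GR-null 17 and wild-type 6 were chosen after seeing the data.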

Additional observations from a re-analysis of the deposited data

Results flagged for a closer look

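Over the 43 genes and the further pathway genes that were called, the values of 4 arrays in each group were searched for 1 array set apart by a gap that takes up most of the group's range. Of 90 groups 4 were marked, and chance marks about 1 in 20. Elovl1 read 12.31 log2 in GR-null 17 while GR-null 5, 25 and 26 lay at 13.02 to 13.10, and Cers4 read 7.34 in GR-null 17 against 7.13 to 7.15. Degs1 read 11.86 in wild-type 28 against 11.56 to 11.61 in the other wild-type arrays. Asah1 read 10.26 in wild-type 6 against 10.17 to 10.18.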

How the results depend on the processing

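No paired analysis was possible because the label numbers do not recur between the groups. The adipocyte and keratinocyte covariates and the fit without GR-null 17 and wild-type 6 were chosen after seeing the data. Of the 43 genes, 2 differed in the reported fit, and also after a further quantile normalization, in probe sets above the median level, with a trended robust prior, with the Y-linked covariate, with the mean of all probe sets, without _x_at and _s_at probe sets and at a minimum of 1.5-fold. The count was 4 with array weights, 0 with the muscle covariate, 0 at an adjusted p of 0.01, 6 with the keratinocyte covariate, 5 without GR-null 17 and wild-type 6, and 0 to 6 without each array in turn. Over all 18194 genes, 539 differed in the reported fit, 1944 with array weights, 60 with the muscle covariate, 884 with the mean of all probe sets, 46 at 0.01, 297 at 1.5-fold, 905 with the adipocyte covariate, 1068 with the keratinocyte covariate, 1715 without GR-null 17 and wild-type 6, and 79 to 1640 without each array. Of the 95 further pathway genes, 2 differed in the reported fit, 1 above the median level, 1 with the trended robust prior, 13 with array weights, 1 with the muscle covariate, 6 with the mean of all probe sets, 1 at 0.01, 1 at 1.5-fold, 8 with the adipocyte covariate, 10 with the keratinocyte covariate, 11 without GR-null 17 and wild-type 6, and 1 to 8 without each array. Leaving out an array also leaves fewer samples, and the causes of these shifts were not tested. Elovl7 and Slc27a4 were lower in GR-null arrays in each of these fits. Of the 43 genes, 27 changed sign in at least 1 of up to 19 alternatives, among them Elovl4 and Cyp4f39, which were past the threshold with the keratinocyte covariate and negative, not past it, with the muscle covariate. Signal over background limits Elovl3, Degs2, Fa2h, Pla2g2e and Lipn, whose probe sets lie below the median level.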
